A study of Rattus norvegicus with 6 samples.

Results

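BCL2 family proteins decide whether the outer membrane of the mitochondrion is opened during the intrinsic pathway of apoptosis. The effectors BAX and BAK form the openings through which cytochrome c leaves, the survival proteins BCL2, BCL-XL and MCL1 hold the effectors and their activators in check, and the BH3-only proteins relay stress signals by binding to survival proteins or effectors. In the kidney, tubular epithelial cells enter this pathway after toxic and ischemic injury. The members were 10 genes of the family, chosen by gene symbol from the deposited count table with earlier results of these data known. They were the effectors Bax and Bak1, the BH3-only genes Bbc3 (encoding PUMA), Pmaip1 (encoding NOXA), Bid, Bad and Bcl2l11 (encoding BIM), and the survival genes Bcl2, Bcl2l1 (encoding BCL-XL) and Mcl1. All 10 were found among the 18930 rows of the table, each as 1 row, and all 10 passed the filter on low counts that left 11870 genes.

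RNA was sequenced from wild-type NRK-52E cells, an established epithelial line from the rat kidney, in 3 samples given vehicle (Control) and 3 samples treated with STZ at 10 mM for 24 h (STZ). STZ is a DNA-alkylating compound taken up by way of its glucose-like part. The study asked which signaling accounts for its toxicity to tubular cells. The comparison of the 2 groups describes RNA of the BCL2 family at this dose and time. Whether the family accounts for the toxicity was not tested. Nothing says whether the 3 samples of a group were separate cultures, so p-values measure the spread between these samples, which may be technical.

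Total counts were 10430924 to 15191349 per sample, and levels are given below as CPM, the reads of a gene scaled to library size with edgeR's TMM factors, and changes as log2 fold changes of STZ minus Control with their standard error (SE). Known DNA damage response genes rose by more than any member, with log2 fold changes of 2.49 for Cdkn1a (encoding p21), 1.95 for Mdm2 and 1.66 for Ccng1. Of the epithelial markers, Krt8 was at 1147 CPM in Control and 1603 CPM in STZ and Tjp1 was also abundant. Krt18 had at most 3 reads and Cdh1 at most 35 in any sample. Epcam, Krt19 and Cldn1 had no row under these symbols in the deposited counts, so their levels are not known. Defining markers of the proximal tubule were nearly absent, with 0 to 10 reads per sample for Lrp2, Cubn, Slc34a1, Slc5a2 and Slc2a2. The summed proximal tubule list, mostly Ggt1, was 57.7 to 60.3 CPM in Control and 74.8 to 87.1 CPM in STZ. Its members past the filter went opposite ways, as Ggt1 rose from 45.0 to 75.0 CPM and Aqp1 fell from 13.0 to 5.43 CPM, past both thresholds (adjusted p = 9.4e-09 by the edgeR quasi-likelihood test). The leukocyte list summed to 1.54 to 2.17 CPM in Control and 2.34 to 3.12 CPM in STZ, and the endothelial list to 2.63 to 4.14 and 1.65 to 2.40 CPM. The summed fibroblast list, mostly Vim, was 2002 to 2203 CPM in Control and 1891 to 1924 CPM in STZ, with Col3a1 down from 53.8 to 21.2 CPM (log2 fold change -1.35), and the summed epithelial list, mostly Krt8, was 1706 to 1792 CPM in Control and 2284 to 2290 CPM in STZ. Epithelial genes past the filter went opposite ways too, as Krt8 and Tjp1 rose and Cdh1 fell from 2.58 to 1.64 CPM. The fall of Cdh1 had an adjusted p of 0.03 by the edgeR quasi-likelihood test, and its groups overlapped. The median log2 fold change of the epithelial list was -0.003. The part of all these lists in the results below was not tested.

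RefSeq promoters of build GRCr8, from 250 bases before to 50 bases after a start site, matched 8 of the 10 members by symbol, in 11 entries. Bax and Bbc3 had no entry, so their promoters were not searched. The 11 entries were searched for CGTCA, the half-site bound by CREB and ATF factors, on both strands (CGTCA or TGACG, counted separately, so that a full site, where both share their central CG, counts as 2). This motif was chosen after the sequences were seen. The Pmaip1 promoter held 2 copies and the Mcl1 promoter 1, and the entries of Bak1, Bid, Bad, Bcl2l11, Bcl2 and Bcl2l1 held none. Both are shown whole, with the half-sites in capitals, because they carry the motif and because Pmaip1 had the largest rise of the members.
Pmaip1: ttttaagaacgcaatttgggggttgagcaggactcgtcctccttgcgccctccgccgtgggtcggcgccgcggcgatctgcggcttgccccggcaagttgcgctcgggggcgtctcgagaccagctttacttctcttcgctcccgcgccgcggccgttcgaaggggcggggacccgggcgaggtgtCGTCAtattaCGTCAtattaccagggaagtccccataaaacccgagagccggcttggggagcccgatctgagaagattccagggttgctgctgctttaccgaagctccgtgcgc
Mcl1: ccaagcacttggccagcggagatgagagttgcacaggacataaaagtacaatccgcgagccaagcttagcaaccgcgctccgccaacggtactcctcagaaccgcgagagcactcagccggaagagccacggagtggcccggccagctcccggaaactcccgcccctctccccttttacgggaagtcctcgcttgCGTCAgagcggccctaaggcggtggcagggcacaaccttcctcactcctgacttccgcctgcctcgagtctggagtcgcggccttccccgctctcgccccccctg
The Pmaip1 sequence is chr18:62255720-62256019 on the + strand, and its half-sites begin at positions -64 and -54 relative to the start site. The Mcl1 sequence is chr2:185907918-185908217 on the + strand, with its half-site at position -55. Of 33465 promoters of this length, 21.2% held at least 1 copy and 4.96% at least 2. A match describes letters in the window and not binding.

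Of the 10 members, 8 were higher in STZ and 0 lower at a Benjamini-Hochberg adjusted p under 0.05, from the edgeR quasi-likelihood fit to all 11870 genes. Of all genes tested, 25.9% were higher at this threshold and 25.1% lower. Because the members were chosen with earlier results of these data known, this contrast and the medians below are descriptions and not tests. The 8 genes were both effectors, 4 of the 5 BH3-only genes and 2 of the 3 survival genes, so members with opposite roles rose in the same libraries. Pmaip1 and Bbc3 also passed an absolute log2 fold change of 1, which 3.37% of all genes tested did in either direction and 2.26% did upward. The median log2 fold change was 0.54 over the effectors, 0.58 over the BH3-only genes and 0.24 over the survival genes, against -0.01 over all genes tested. At an unadjusted p under 0.05, 1 member was lower, and DESeq2 and limma-voom each gave 0 lower members at an adjusted p under 0.05. A library of whole cultures cannot tell a change in every cell from a change in the share of cells that express a gene.

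**Figure D1:**
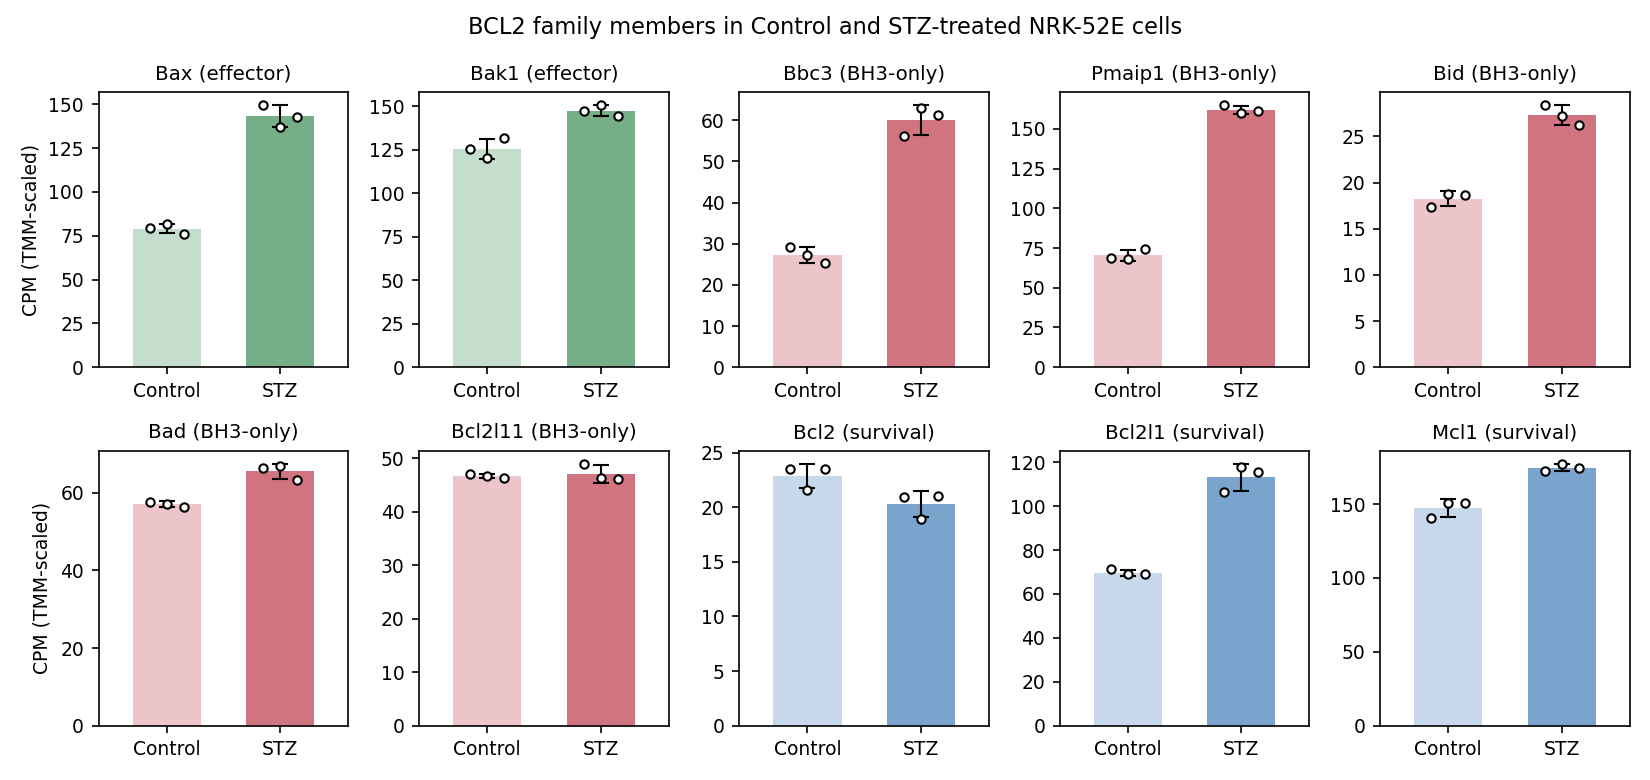
Level of each of the 10 members in CPM (vertical axis, from 0) in the 3 Control and 3 STZ libraries, with bars for group means, error bars for SD and points for single libraries in the order of replicate number. Pmaip1 and Bbc3 more than doubled, Bcl2l11 overlapped between the groups, and Bcl2 sat lower in all 3 STZ libraries.

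Bax, the effector that moves from the cytosol to mitochondria, was at 79.6, 81.5 and 76.1 CPM in Control replicates 1, 2 and 3 and at 149.5, 137 and 143 CPM in the STZ replicates. Every STZ library lay above every Control library. The means were 143 ± 6.19 and 79.1 ± 2.72 CPM (SD, n = 3 each), a log2 fold change of 0.86 (SE 0.05, adjusted p = 2.6e-19 by the edgeR quasi-likelihood test). Bak1, the effector that resides on the outer membrane, was at 125, 120.0 and 132 CPM in Control and at 147, 151 and 144 CPM in STZ. The groups of Bak1 did not overlap either, but the rise was small, with a log2 fold change of 0.23 (SE 0.04, adjusted p = 3.2e-05 by the same edgeR test). Within each library the log2 ratio of Bax to Bak1 reads was -0.65, -0.56 and -0.79 in Control and 0.02, -0.14 and -0.01 in STZ, so the effectors did not move by the same amount. Groups did not overlap in 56.3% of all genes tested and in 9 of the 10 members. In the GRCr8 annotation the span of Bak1 overlaps an unnamed long non-coding RNA, and whether reads were assigned by strand is not given.

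Among the BH3-only genes, Pmaip1 changed most. Its protein, NOXA, binds chiefly to MCL1. Pmaip1 was at 68.6, 68.3 and 74.6 CPM in Control and at 165, 160.1 and 161 CPM in STZ. The log2 fold change was 1.20 (SE 0.05, adjusted p = 2.3e-24 by the edgeR quasi-likelihood test), a 2.30-fold rise and the smallest p-value of the 10 members. Bbc3 encodes PUMA, which binds all the main survival proteins. Its level was 29.3, 27.3 and 25.4 CPM in Control and 56.1, 62.9 and 61.3 CPM in STZ, a log2 fold change of 1.14 (SE 0.07, adjusted p = 2e-18 by the same edgeR test). The 95% interval of this change was 1.01 to 1.27, so it sat just over the fold threshold, and that of Pmaip1 was 1.11 to 1.29. When glmTreat tested whether the change itself exceeded 1, Pmaip1 passed (adjusted p = 0.0016) and Bbc3 did not (adjusted p = 0.4). Within a library the ratio of Bbc3 to Pmaip1 overlapped between the groups, with a mean change of -0.07 and a pooled SD of 0.14, both in log2.

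Bid, which is cleaved by caspase-8 and so links death receptors to mitochondria, was at 17.3, 18.8 and 18.6 CPM in Control and at 28.4, 27.3 and 26.3 CPM in STZ. Its log2 fold change was 0.58 (SE 0.08, adjusted p = 1e-07 by the edgeR quasi-likelihood test), and the groups did not overlap. Casp8 itself, the gene of that caspase, had a log2 fold change of 0.11 and did not pass the test (adjusted p = 0.22 by the same edgeR test). Bad, which is held inactive by 14-3-3 proteins when growth factor signaling phosphorylates it, was at 57.7, 57.2 and 56.3 CPM in Control and at 66.4, 66.9 and 63.3 CPM in STZ. The groups of Bad were apart by a few CPM, with a log2 fold change of 0.20 (SE 0.05, adjusted p = 0.002 by the same edgeR test). Bcl2l11 was at 47.0, 46.8 and 46.4 CPM in Control and at 49.0, 46.3 and 46.1 CPM in STZ, with 2 of the 3 STZ libraries below all Control libraries. It encodes BIM, a BH3-only protein induced by growth factor withdrawal. It did not pass the test, and the 95% interval of its log2 fold change was -0.11 to 0.13. The span of Bcl2l11 overlaps the coding gene Acoxl in GRCr8, so its reads may not be fully separated.

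The survival genes did not move together. Bcl2l1 was at 71.3, 69.0 and 68.9 CPM in Control and at 106, 118 and 115 CPM in STZ. Its log2 fold change of 0.70 (SE 0.05, adjusted p = 1.2e-15 by the edgeR quasi-likelihood test) was the fourth largest of the 10 members, after Pmaip1, Bbc3 and Bax. BCL-XL can be made as a long survival form or a short form with the opposite role, and counts per gene do not separate them. The Bcl2l1 span overlaps a ribosomal protein pseudogene, Rps2-ps43, in GRCr8. Mcl1, whose protein turns over rapidly, was at 140.3, 151 and 151 CPM in Control and at 172, 177 and 174 CPM in STZ. All 3 STZ libraries were above Control, with a log2 fold change of 0.24 (SE 0.04, adjusted p = 5.9e-06 by the same edgeR test). Bcl2, the founding gene of the family, was at 23.5, 21.6 and 23.5 CPM in Control and at 20.9, 18.9 and 21.0 CPM in STZ. Every STZ library was below every Control library, yet the log2 fold change of -0.17 (SE 0.08) was not past the threshold (adjusted p = 0.083 by the same edgeR test, and 0.037 to 0.26 over 15 alternatives). It passed only with library size alone as the scaling. The span of Bcl2 overlaps 2 unnamed long non-coding RNAs in GRCr8, and with 218 to 315 reads per library it was among the members with the fewest reads.

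**Figure D2:**
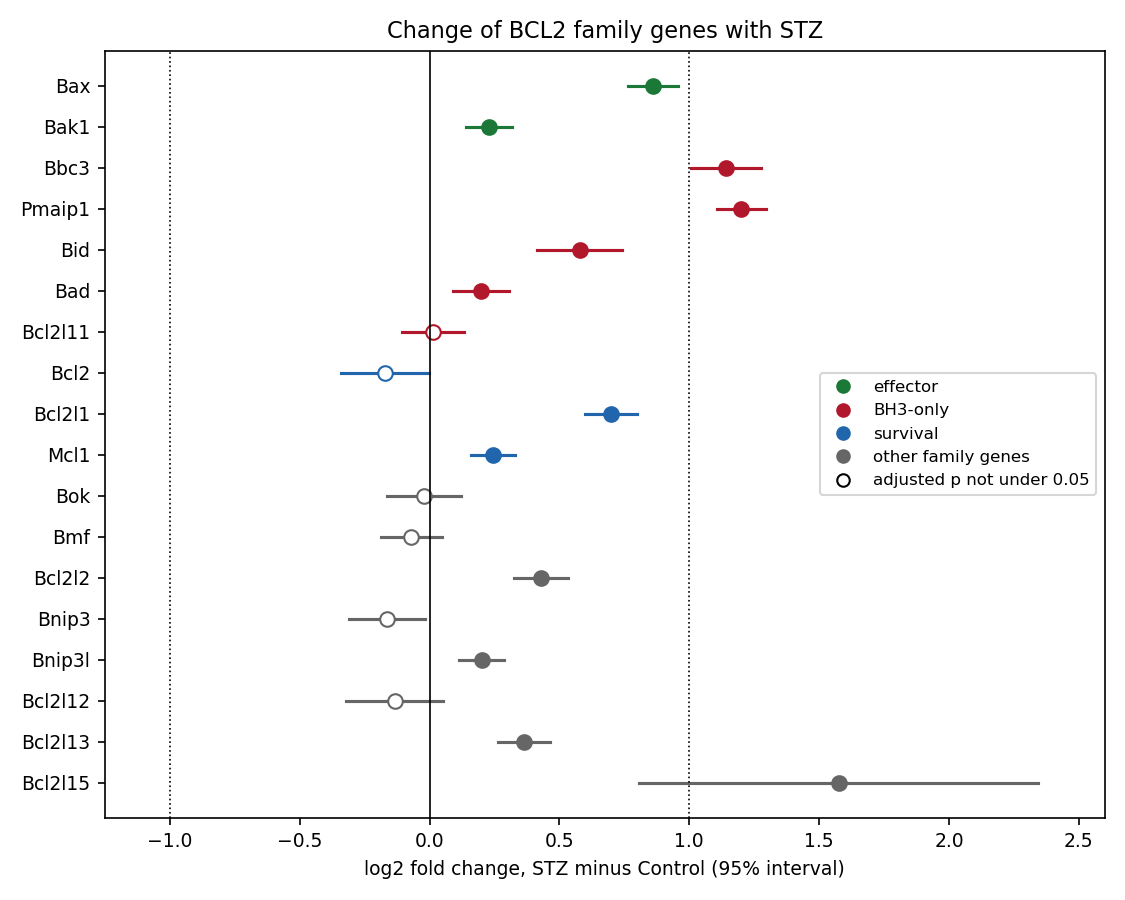
Log2 fold change (horizontal axis, STZ minus Control) of the 10 members and of 8 other BCL2 family genes past the filter, with 95% intervals as lines, colours for the class, open points for an adjusted p not under 0.05 and dotted lines at the fold threshold. Pmaip1 and Bbc3 are the members whose intervals lie above 1, and Bcl2 is the member with the lowest estimate.

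The balance between pro-apoptotic and survival transcripts was read from ratios of counts within a library, which do not depend on how libraries are scaled. The ratio changed in different ways for the 3 survival genes. An exact permutation test of 3 samples per group, two-sided, cannot go below p = 0.1, so ratios are described by their values and spread. Levels of different genes were not compared, since gene length enters a ratio of counts. A change in a ratio between groups is free of length, but it restates the difference between the changes of its genes. Ratios of RNA do not give the balance of the proteins.

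Against Bcl2, all 7 effector and BH3-only genes rose, with no overlap between groups, by 0.19 for Bcl2l11 to 1.38 for Pmaip1 on the log2 scale. Of all genes tested, 43.6% rose against Bcl2 without overlap, and 28.6% were higher in STZ without overlap in CPM. Bcl2 itself sat lower in STZ. The log2 ratio of Bax to Bcl2 was 1.76, 1.91 and 1.69 in Control and 2.84, 2.86 and 2.77 in STZ, a change of 1.03 with a pooled SD of 0.09. Against Mcl1, 4 of the 7 genes rose without overlap, whereas 9.23% of all genes did. These were Pmaip1, Bbc3, Bax and Bid. The log2 ratio of Pmaip1 to Mcl1, a pair whose proteins bind each other, went from -1.03, -1.14 and -1.02 in Control to -0.06, -0.15 and -0.11 in STZ. The ratios of Bak1 and Bad to Mcl1 overlapped between groups, and the log2 ratio of Bcl2l11 to Mcl1 was lower in all STZ libraries, with a change of -0.23. Of all genes, 58.3% were lower against Mcl1 without overlap.

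Against Bcl2l1 the picture differed. Pmaip1 (0.51) and Bbc3 (0.44) rose relative to Bcl2l1 without overlap, which 2.14% of all genes did. The log2 ratio of Bbc3 to Bcl2l1 was -1.28, -1.34 and -1.44 in Control and -0.92, -0.91 and -0.91 in STZ. The ratio of Bax to Bcl2l1 was 0.16, 0.24 and 0.14 in Control and 0.49, 0.22 and 0.31 in STZ. These groups overlapped, as the second STZ library lay within the Control range. Bid also overlapped against Bcl2l1. Bak1, Bad and Bcl2l11 fell behind Bcl2l1 in all STZ libraries, with log2 changes of -0.47, -0.50 and -0.69, as did 88.2% of all genes. Bcl2l1 and Mcl1 themselves parted, with a rise of Bcl2l1 over Mcl1 of 0.45 and a pooled SD of 0.08, and Bcl2 to Bcl2l1 changed by -0.87.

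**Figure D3:**
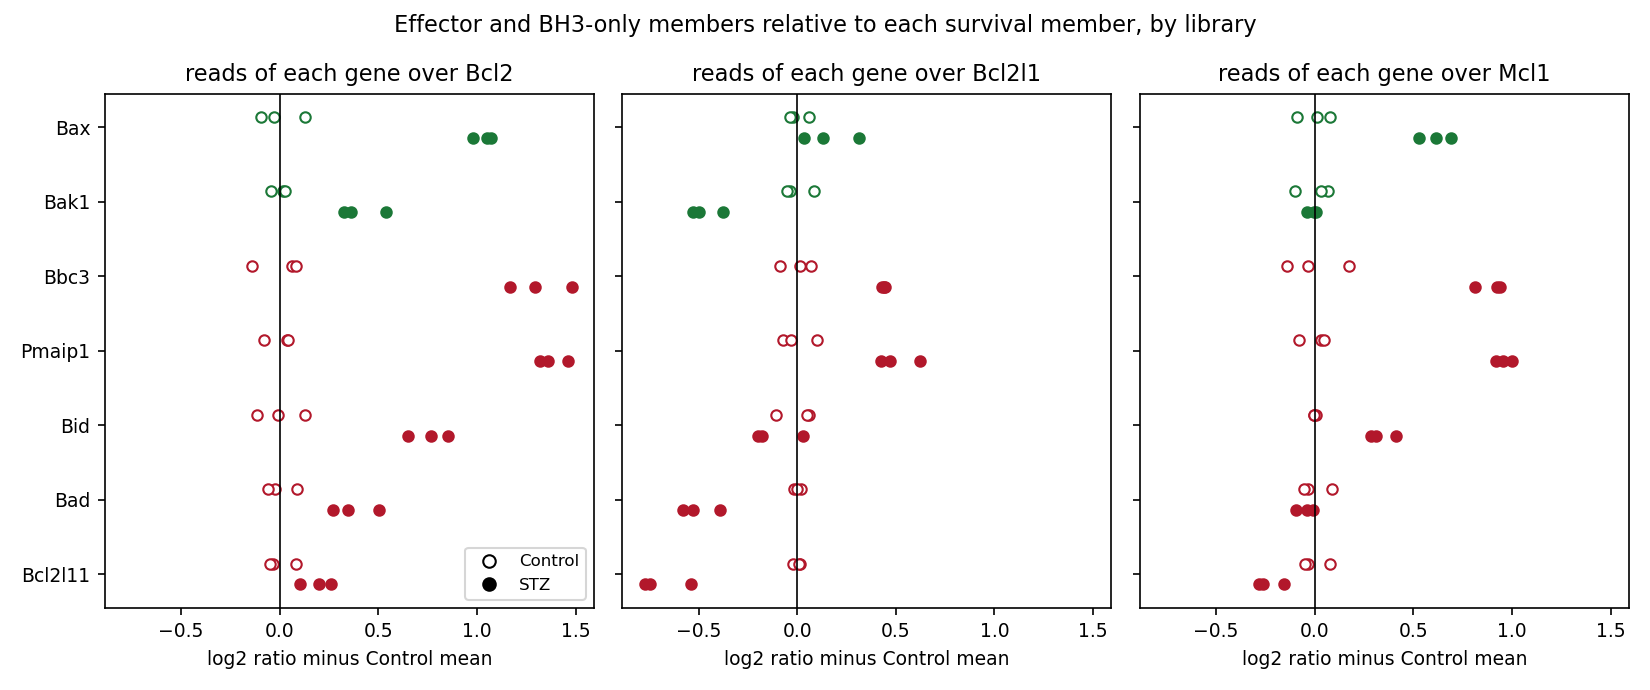
Log2 ratio of reads of each effector or BH3-only gene to Bcl2, Bcl2l1 or Mcl1 in the same library, minus the Control mean of that ratio (horizontal axis), with open points for the 3 Control and filled points for the 3 STZ libraries. All 7 genes moved right against Bcl2, 4 did against Mcl1, and against Bcl2l1 only Pmaip1 and Bbc3 cleared the Control libraries to the right.

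The list of other BCL2 family genes held 13 genes, of which 10 were in the table and 8 passed the filter. Of these, 4 rose at an adjusted p under 0.05 and 0 fell (edgeR quasi-likelihood test), with 1 lower at an unadjusted p under 0.05, 1 lower by the likelihood ratio test and 0 by DESeq2 and limma-voom. Of all genes tested, 25.9% were higher and 50.9% passed in either direction. The median log2 fold change of the 8 genes, with Bcl2l15 among them, was 0.09. Bcl2l2, encoding the survival protein BCL-W, had the smallest p. It was at 66.8, 63.2 and 63.2 CPM in Control and at 89.9, 89.0 and 81.5 CPM in STZ, a log2 fold change of 0.43 (SE 0.05, adjusted p = 4.1e-09 by the edgeR quasi-likelihood test). Bcl2l15 passed both thresholds with a log2 fold change of 1.58 (SE 0.38), but from 3, 6 and 8 reads in Control and 21, 17 and 22 reads in STZ. Its adjusted p was 0.00059 by the edgeR quasi-likelihood test, and it was not tested where at least 10 counts were required in every sample. Bcl2l15 passed the filter only through its STZ libraries, so its call among the 4 that rose gives no support. The same holds for its place in the median, as without Bcl2l15 the middle value is that of Bok, -0.02. Bcl2a1 and Bcl2l14 had at most 1 read in any sample. Bok, an effector-like gene, and Bmf, a BH3-only gene, did not pass the test, with log2 fold changes of -0.02 and -0.07. Bok and Bmf are named here after their values were seen.

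Partners of the family include the channels of the outer membrane, 14-3-3 proteins, dynein light chains and the enzymes that mark MCL1 for destruction or spare it. All 21 passed the filter, and 6 rose and 7 fell at an adjusted p under 0.05, with a median log2 fold change of 0.06. This is 13 of 21, where 50.9% of all genes tested passed in either direction. Without the first STZ library 8 passed. Dynll2, a dynein light chain that tethers BMF, had the smallest p among those that rose, with a log2 fold change of 0.37 (SE 0.04, adjusted p = 2.3e-09 by the edgeR quasi-likelihood test). Ywhaq, a 14-3-3 gene, had the smallest p among those that fell, at 372, 387 and 394 CPM in Control and 306, 304 and 307 CPM in STZ. Its log2 fold change was -0.33 (SE 0.04, adjusted p = 5.9e-10 by the same edgeR test).

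Of the 13 genes tested that act after the outer membrane opens, 4 rose, 2 fell and 7 did not pass, and the median log2 fold change was -0.07. That 6 of 13 passed is near the 50.9% of all genes tested. Xiap, an inhibitor of caspases, had the smallest p among those that fell, with 36.9, 36.2 and 38.3 CPM in Control and 30.8, 28.6 and 30.4 CPM in STZ. Its log2 fold change was -0.31 (SE 0.07, adjusted p = 0.00018 by the edgeR quasi-likelihood test). Apaf1, the scaffold that cytochrome c activates, and Birc2, an inhibitor of apoptosis gene, are named after their values were seen. Apaf1 also fell, with a log2 fold change of -0.26 (SE 0.06, adjusted p = 0.00075 by the same edgeR test). Birc2 rose, with a log2 fold change of 0.24 (SE 0.06, adjusted p = 0.00092 by the same edgeR test).

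Of 10 transcription factors known to act on BCL2 family genes, 9 were in the table and 8 were tested, of which 3 rose, 1 fell and 4 did not pass. This too is near the 50.9% of all genes tested that passed. Ddit3, encoding CHOP, which is induced by the integrated stress response, had the smallest p. It was at 21.0, 24.0 and 21.2 CPM in Control and at 38.4, 40.5 and 39.3 CPM in STZ, a log2 fold change of 0.84 (SE 0.07, adjusted p = 6.2e-13 by the edgeR quasi-likelihood test). Foxo4 had the smallest p among those lower, with a log2 fold change of -0.37 (SE 0.07, adjusted p = 7.6e-06 by the same edgeR test). Atf4, whose product is controlled largely by translation, is named after its values were seen. It did not pass the test, with a 95% interval of the log2 fold change of -0.09 to 0.07.

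**Figure D4:**
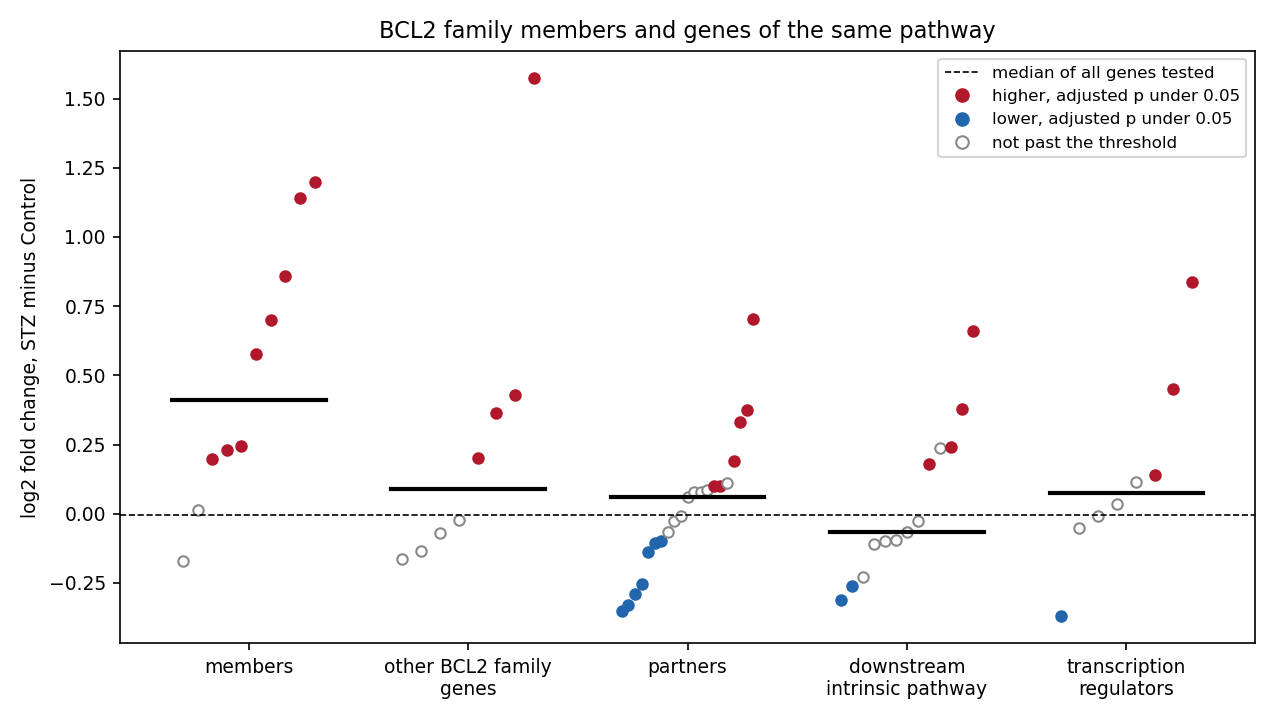
Log2 fold change (vertical axis, STZ minus Control) of the members and of the other lists, 1 point per gene past the filter, ordered by value within a list, with black bars for list medians and a dashed line for the median of all genes tested. The median of the members was 0.41, and those of the other 4 lists lay between -0.07 and 0.09. The value of 0.09 is that of the other BCL2 family genes and includes Bcl2l15, which passed the filter only through its STZ libraries. Members and lists were chosen with earlier results of these data known.

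The genes whose pattern was most like that of Pmaip1 were Fancg, Necap1 and Ccn4, with Pearson correlations of log2 CPM over the 6 samples that all rounded to at least 0.999. Their log2 fold changes were 0.79, 0.33 and 0.80. As the 6 samples form 2 groups, such correlations follow mostly the step between groups, and 1229 of 10906 genes with a symbol had a correlation over 0.95.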

How the data were processed

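Libraries were made with a stranded mRNA kit and read single-end. Per the methods and the submitters' processing notes, the authors aligned with STAR 2.7.10a against Rnor6 and then ran featureCounts on the uniquely aligned reads. They deposited raw counts per gene, 1 column per sample, assigned here to groups by title. The annotation release and strand setting are not given in the sources used here.

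From these counts, TMM factors, the filter (filterByExpr), dispersions and the quasi-likelihood test were computed over all genes in R 4.3.3 (edgeR 4.0.16). P-values were adjusted by Benjamini-Hochberg, following the thresholds of the study (adjusted p under 0.05 and, where stated, an absolute log2 fold change over 1). SE was taken as the size of the log2 fold change over the root of its F statistic. Alternatives used other filters, scalings, DESeq2 1.42.0, limma-voom (limma 3.58.1), the likelihood ratio test, glmTreat, a replicate block and each sample left out. The steps were also run on simulated counts in which far fewer genes changed than passed here. That run does not show how the steps perform on these data.

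All members were named. Of each other list, genes past both thresholds and the smallest p in each direction were named, with exceptions marked. Some results that this rule names are not reported here. Members and lists were chosen with earlier results of these data known. Total counts of 10430924 to 15191349 set the precision of low genes. Promoter sequences came from RefSeq (GRCr8), and no coordinates of the authors' build were used.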

Additional observations from a re-analysis of the deposited data

How the results depend on the processing

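The number of members that rose was 8 under all 15 refits. Members past both thresholds numbered 2 under these refits and 1 with glmTreat, which requires the change itself to exceed the threshold. No member was lower except with library size only, where Bcl2 was lower and made the count 1 (log2 fold change -0.20, adjusted p = 0.037 by the edgeR quasi-likelihood test). With one sample left out, the counts were 8 to 8 members higher, 0 to 0 lower and 2 to 2 past both thresholds. Genes past the adjusted p were then 4 to 5 for the other family genes, 8 to 13 for the partners (8 without STZ replicate 1), 5 to 6 for the downstream genes and 4 to 5 for the transcription factors. Over all 15 refits these counts were 3 to 5, 8 to 14 (14 with the replicate block), 4 (DESeq2) to 8 (upper quartile) and 4 to 5. The log2 fold change of Bcl2l11, 0.01, was -0.020 with library size only, -0.0058 with the upper quartile, and -0.014 (without STZ replicate 1) to 0.032 with one sample left out. The log2 ratio of Bak1 to Mcl1, -0.014, was -0.063 to 0.019 with one sample left out, with 0.019 and 0.0032 without Control replicates 1 and 3 and 0.00025 without STZ replicate 3. With one sample left out, the log2 fold change was -0.045 to 0.023 for Bok (0.023 without STZ replicate 3), -0.13 to 0.0011 for Bmf (0.0011 without STZ replicate 3) and -0.038 to 0.022 for Atf4 (0.022 without Control replicate 3, 0.016 without STZ replicate 1). Over 45 genes, the members, 3 DNA damage response genes and the genes of the other lists that were named or passed the test, 637 refits kept direction and side of the threshold, 29 lost the call, 1 gained it and 7 changed sign. Genes of the other lists that were neither named nor past the test are not in this tally, so it understates gains.

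Control and STZ samples share replicate numbers. Deviations of same-numbered samples from their group means had correlations of 0.036, -0.030 and 0.080 across 11297 genes, and 3 of 6 samples correlated best with their own number, so no pairing beyond the number was taken. In the fit with the replicate block, 8 members were higher, 0 lower and 2 past both thresholds, and 398 of all genes passed both thresholds against 400 without it. Members with few reads, such as Bcl2 and Bid, have the widest intervals.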

Other observations

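The 14-3-3 genes, whose proteins hold phosphorylated BAD in the cytosol, were looked at after their values were seen. Of the 6 on the partner list, Ywhag and Ywhab rose, with log2 fold changes of 0.19 and 0.10, and Ywhaq, Ywhae and Ywhah fell, with -0.33, -0.29 and -0.11 (adjusted p under 0.05 in each, edgeR quasi-likelihood test). Ywhaz had a log2 fold change of -0.03 and did not pass. Of all genes tested, 50.9% passed at this threshold in either direction. Ywhab lost its call with library size only and with the upper quartile, where its log2 fold change was 0.07 and 0.08, and without any 1 of the 3 Control samples or STZ replicate 1. Ywhah lost its call without Control replicate 3, STZ replicate 1 or STZ replicate 3, with log2 fold changes of -0.09, -0.08 and -0.10.

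Fbxw7, which encodes a ubiquitin ligase component that targets MCL1, had the largest log2 fold change of the partners, 0.71 (SE 0.11, adjusted p = 4.5e-07 from the same edgeR test), with 97 to 145 reads in Control and 197 to 255 in STZ. Huwe1, another ligase for MCL1, fell, with a log2 fold change of -0.14 (adjusted p = 0.0013 from the same test). Both are named after their values were seen.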
